A study of Mus musculus with 6 samples.

Results

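The genes described here are 7 transcription regulators of the early gonad and of the mesonephros and its ducts: Emx2, Lhx9, Lhx1, Six4, Cbx2, Pax2 and Pax8. They were taken by gene name from the table of gene counts, where each matched 1 of 42747 rows. All 7 were among the 18383 genes that passed the low-count filter. RNA came from whole testes of mouse embryos at E16.5 (days of embryonic development), with 3 libraries from cKO mice and 3 from WT mice, 1 animal a library as far as the series design tells. In its title the study names the kinase CK1α, encoded by Csnk1a1, in Sertoli cells, which support the germ cells inside the testis cords, and cKO was read as its conditional knockout. The sources used here do not give the strain, the alleles or the driver of the deletion. No treatment is named for either group.

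The gonad and the urinary tract grow from neighbouring parts of the intermediate mesoderm. A group of transcription factors builds the bipotential gonad before sex is determined, largely by switching on Nr5a1 and, in males, Sry, while PAX proteins and LHX1 set up the nephric duct and the mesonephros, from which the male reproductive ducts are formed. Mice without Emx2 lack kidneys, gonads and reproductive tracts. Of the LIM-homeodomain factors, LHX9 is needed for gonad formation and LHX1 for the nephric and Müllerian ducts. SIX4 acts upstream of Nr5a1 and Sry, and CBX2 is a subunit of Polycomb repressive complex 1 (PRC1) whose loss gives male-to-female sex reversal in mice. PAX2 and PAX8 act with overlapping roles in the nephric lineage, and PAX8 is also found in the rete, the network that joins the testis cords to the efferent ducts.

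Libraries held 15092619 to 17431546 counts. Levels are given as CPM, which are counts divided by library size after TMM composition scaling, or, where genes are compared with each other, as the FPKM values that the authors deposited, which are per length. Differences are log2 fold changes of cKO over WT from edgeR's quasi-likelihood test, with p-values adjusted over all 18383 genes and a threshold of 0.05. Csnk1a1 had 396, 405 and 377 CPM in the cKO libraries and 371, 396 and 348 CPM in the WT libraries, and this count over the whole gene in a whole organ does not check the labels. Of 10 Sertoli cell markers, 9 were lower in cKO testes, among them Sox9, Amh and Dhh. Over the 16 alternative fits Sox9 lost its call in 2 (without WT library 1 or 3, adjusted p = 0.0509 and 0.0671), Aard and Clu in 5 each and Dmrt1 in 7, and the other 5 kept theirs. The summed CPM of the list was 722 to 1133 in cKO and 2175 to 3063 in WT libraries. In whole organs, fewer cells of a type and less RNA per cell cannot be told apart.

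In cKO testes Emx2 was 2.09 times its WT level, and it was the only gene of the 7 that was called different. The other 6 stayed within a factor of 1.5 of WT on average, with 5 fold changes above 0 (Pax8, Six4, Lhx1, Pax2 and Lhx9) and that of Cbx2 below 0. Of the 7 genes, 1 was higher and 0 lower by edgeR, DESeq2 and limma-voom alike. Over all tested genes edgeR called 3.35%, with 1.5% higher and 1.84% lower. With an unadjusted p under 0.05 there were 2 higher (Emx2 and Pax8) and 1 lower (Cbx2) among the 7, against 15.8% of all tested genes. For Emx2 all cKO values were above, and for Cbx2 all were below, the WT values. This held for 21.6% of all tested genes, with 10.7% above and 10.9% below. The median log2 fold change was 0.32 over the 7 genes and 0.00 over all tested genes. That median is the value of Lhx1, which had 5 to 20 counts a library and an SE of 0.628.

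**Figure D1:**
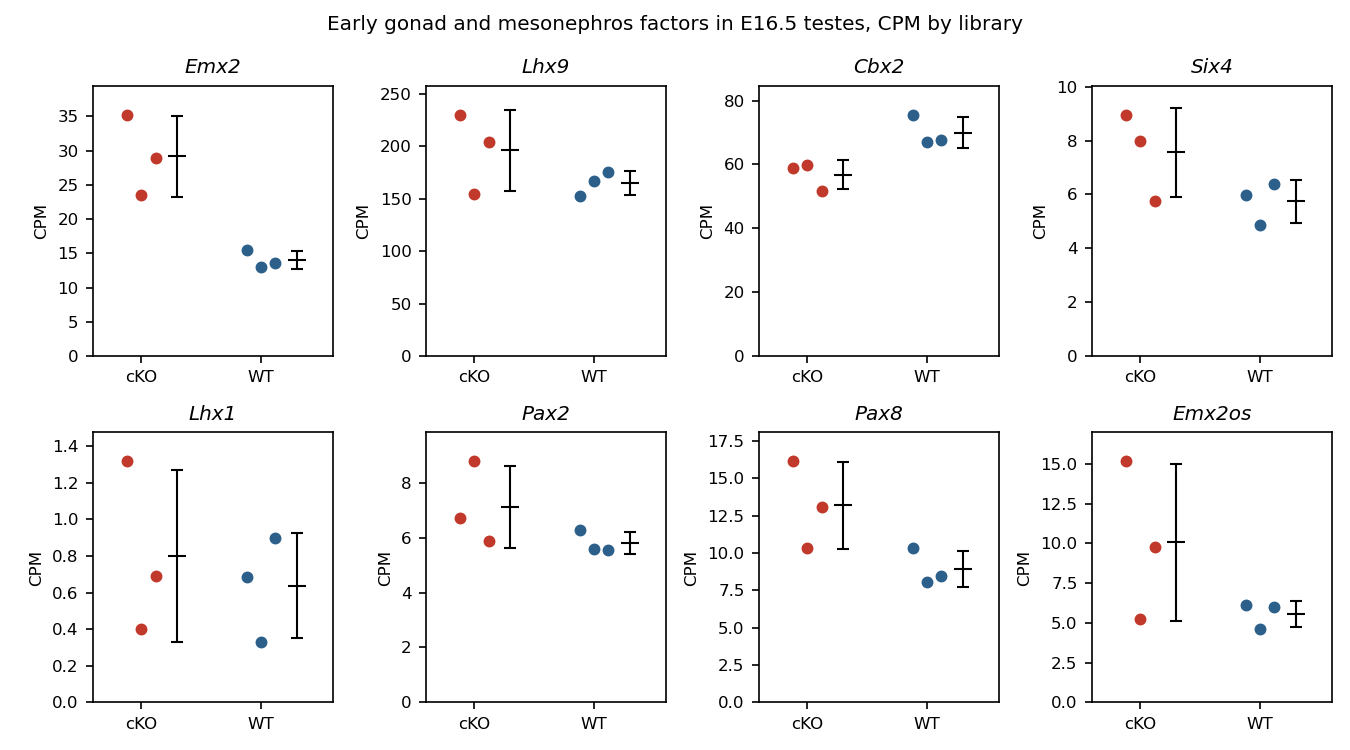
CPM (library-scaled counts) of the 7 factors and of Emx2os, the antisense gene at Emx2, in each library (points) of cKO and WT testes, with the mean ± SD of 3 libraries beside them. The cKO points lie above all WT points for Emx2 and below them for Cbx2, and the groups overlap in the other 6 panels.

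Emx2, a homeobox gene, is at positions 61420388 to 61427434 on the plus strand of chromosome 19, by the C57BL/6NJ coordinates that the files carry. Its counts were 535, 353 and 502 in cKO libraries 1, 2 and 3 and 248, 195 and 226 in WT libraries 1, 2 and 3. In CPM these were 35.2, 23.5 and 28.9 in cKO and 15.4, 13.0 and 13.5 in WT. The lowest cKO library was above the highest WT library, and the WT libraries lay close together. The mean was 29.2 ± 5.89 CPM in cKO testes and 14.0 ± 1.29 CPM in WT testes (SD, n = 3 each). The log2 fold change was 1.06 (SE 0.182, 95% interval 0.66 to 1.46; edgeR adjusted p = 0.00839), which placed Emx2 at rank 250 of all tested genes by p. The call was lost without WT library 3, where the log2 fold change was 1.04 and the adjusted p 0.0576.

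Emx2 overlaps the antisense gene Emx2os by 264 bases at its start in the files. Emx2os had 15.1, 5.25 and 9.78 CPM in cKO libraries 1, 2 and 3 and 6.10, 4.59 and 5.98 CPM in WT libraries 1, 2 and 3. Libraries 1 and 3 of cKO were above all WT libraries, and cKO library 2 was within the WT range. Emx2os was not called (log2 fold change 0.85, SE 0.344, 95% interval 0.10 to 1.61; edgeR adjusted p = 0.252). It was called without cKO library 2 (1.16, edgeR adjusted p = 0.0283) and with no low-count filter (0.86, edgeR adjusted p = 0.0461). Without cKO library 1 the log2 fold change was 0.44 (edgeR adjusted p = 0.481). The Emx2os count was 43.0%, 22.4% and 33.9% of the Emx2 count in cKO libraries and 39.5%, 35.4% and 44.2% in WT libraries. With no strand setting stated, reads in the shared stretch cannot be assigned to a strand, and their part in the Emx2 difference was not tested.

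**Figure D2:**
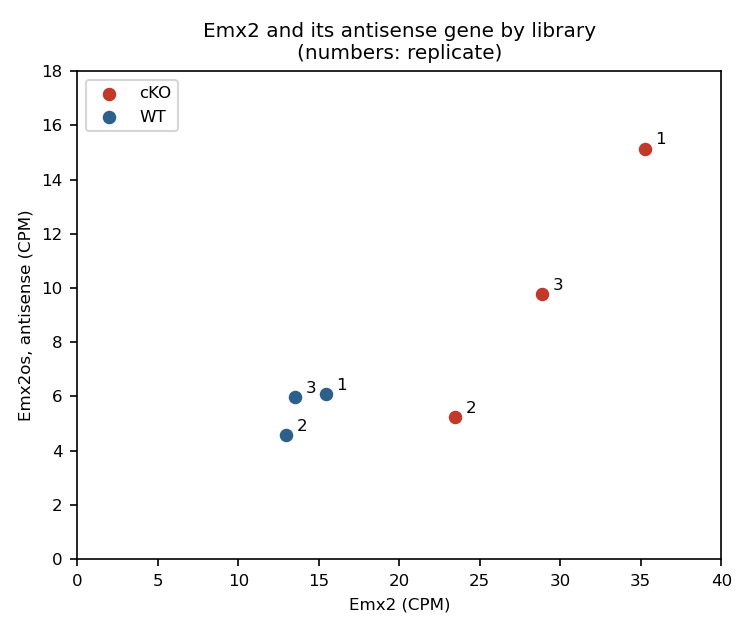
CPM of Emx2 (x axis) and of its antisense gene Emx2os (y axis) in each of the 6 libraries, numbered by replicate. All cKO points lie to the right of the WT points, while cKO library 2 has an Emx2os level, 5.25 CPM, within the WT range.

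The sequence around the RefSeq start of Emx2 is shown because the antisense transcript also starts there. The RefSeq sequence of build GRCm38.p6, chr19:59458440-59458739, plus strand, runs from 250 bases before to 50 bases after the RefSeq start of Emx2. Capitals mark a CCAAT box (CCAAT) and a homeodomain palindrome (TAATTA).
Emx2: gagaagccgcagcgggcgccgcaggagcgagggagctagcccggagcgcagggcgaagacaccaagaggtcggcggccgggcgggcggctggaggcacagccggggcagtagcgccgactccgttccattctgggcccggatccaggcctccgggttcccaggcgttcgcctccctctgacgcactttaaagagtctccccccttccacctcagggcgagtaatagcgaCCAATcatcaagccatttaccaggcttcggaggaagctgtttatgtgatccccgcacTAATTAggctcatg
In this build the GENCODE M21 start of Emx2os falls 55 bases before the RefSeq start of Emx2, at base 196 of the window, and is read in the opposite direction. The GENCODE start of Emx2 lies 318 bases before the RefSeq start, outside the window. The 264 bases shared with Emx2os arise with that earlier start, and from the RefSeq start onward none are shared. The GC content of the window was 64.3%. The CCAAT box began at position -21 and the palindrome at 37, counted from the Emx2 start. Both strands were searched for CCAAT, for TAATTA and for CTTTGA, the core recognised by the TCF/LEF factors of Wnt signalling. CTTTGA was in none of the 9 promoter windows that RefSeq gave for 6 of the 7 genes, against 16% of 32851 windows of the same length. TAATTA was in 1 of the 9, against 5.29% of all windows, and CCAAT in 5 of the 9, against 37.4%. A match or its absence in these windows is a description of letters only.

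Lhx9 was the most abundant of the 7 genes in CPM and was not called. It lies on the minus strand of chromosome 1, at positions 147877261 to 147902128 in the same coordinates. It had 230, 155 and 204 CPM in cKO libraries 1, 2 and 3 and 152, 167 and 175 CPM in WT libraries 1, 2 and 3. Libraries 1 and 3 of cKO were above all WT libraries, and cKO library 2 lay among them. The mean was 196 ± 38.4 CPM in cKO testes and 165 ± 11.6 CPM in WT testes (SD, n = 3 each), with a log2 fold change of 0.25 (95% interval -0.08 to 0.58; edgeR adjusted p = 0.463). The FPKM of Emx2 divided by that of Lhx9 was 0.474, 0.470 and 0.438 in cKO libraries 1, 2 and 3 and 0.314, 0.240 and 0.239 in WT libraries 1, 2 and 3. The ratio was thus higher in each cKO library than in each WT library. Its range within cKO was narrow, and both genes were lowest in cKO library 2.

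Six4, a homeobox gene on the minus strand of chromosome 12 (75252859 to 75266706), had 8.96, 7.98 and 5.75 CPM in cKO libraries 1, 2 and 3 and 5.97, 4.86 and 6.40 CPM in WT libraries 1, 2 and 3. The groups overlapped through cKO library 3. Its log2 fold change was 0.39 (95% interval -0.17 to 0.96; edgeR adjusted p = 0.511), so the data are compatible with changes from 0.887 to 1.95 times the WT level.

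Cbx2, the Polycomb gene, on the plus strand of chromosome 11 (127132792 to 127142875), was the single member with a lower mean in cKO. It had 58.9, 59.8 and 51.6 CPM in cKO libraries 1, 2 and 3 and 75.5, 66.9 and 67.5 CPM in WT libraries 1, 2 and 3. All cKO values were below all WT values, with the smallest coefficient of variation of the 7 genes in each group. The mean was 56.8 ± 4.46 CPM in cKO testes and 70.0 ± 4.80 CPM in WT testes (SD, n = 3 each), and the log2 fold change of -0.30 (SE 0.122, 95% interval -0.57 to -0.03) was not called (edgeR adjusted p = 0.251). Cbx2 stayed below 0 and uncalled in all 16 alternative fits, at -0.34 to -0.24. Its neighbour Cbx8, which encodes another chromobox subunit of PRC1, had a log2 fold change of 0.07 (edgeR adjusted p = 0.888).

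Of the mesonephric and duct factors, Pax8 had the largest fold change and was not called. This paired box gene, on the minus strand of chromosome 2 (22934897 to 23007572), had 16.1, 10.3 and 13.1 CPM in cKO libraries 1, 2 and 3 and 10.3, 8.05 and 8.43 CPM in WT libraries 1, 2 and 3. The groups met at cKO library 2 and WT library 1. The log2 fold change was 0.56 (SE 0.223, 95% interval 0.07 to 1.05; edgeR adjusted p = 0.245), and it ran from 0.35 to 0.71 over 16 alternative fits with no call.

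Pax2, on the plus strand of chromosome 19 (45360916 to 45448408), had 6.72, 8.78 and 5.87 CPM in cKO libraries 1, 2 and 3 and 6.29, 5.59 and 5.56 CPM in WT libraries 1, 2 and 3. The groups overlapped, and Pax2 was highest in cKO library 2, where Pax8 was lowest among the cKO libraries. The log2 fold change was 0.29 (95% interval -0.26 to 0.84; edgeR adjusted p = 0.627). In FPKM, Pax8 was 2.14, 1.05 and 1.99 times Pax2 in cKO libraries 1, 2 and 3 and 1.47, 1.28 and 1.35 times Pax2 in WT libraries 1, 2 and 3.

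Lhx1, on the minus strand of chromosome 11 (88557716 to 88564967), was the least abundant, with 20, 6 and 12 counts in cKO libraries 1, 2 and 3 and 11, 5 and 15 counts in WT libraries 1, 2 and 3. Its level was 0.802 ± 0.469 CPM in cKO testes and 0.638 ± 0.285 CPM in WT testes (SD, n = 3 each). The 95% interval of its log2 fold change, -1.07 to 1.70, allows changes from 0.478 to 3.25 times the WT level, so no difference was detectable at this depth (0.32, edgeR adjusted p = 0.859). Without cKO library 1 the log2 fold change was -0.22.

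**Figure D3:**
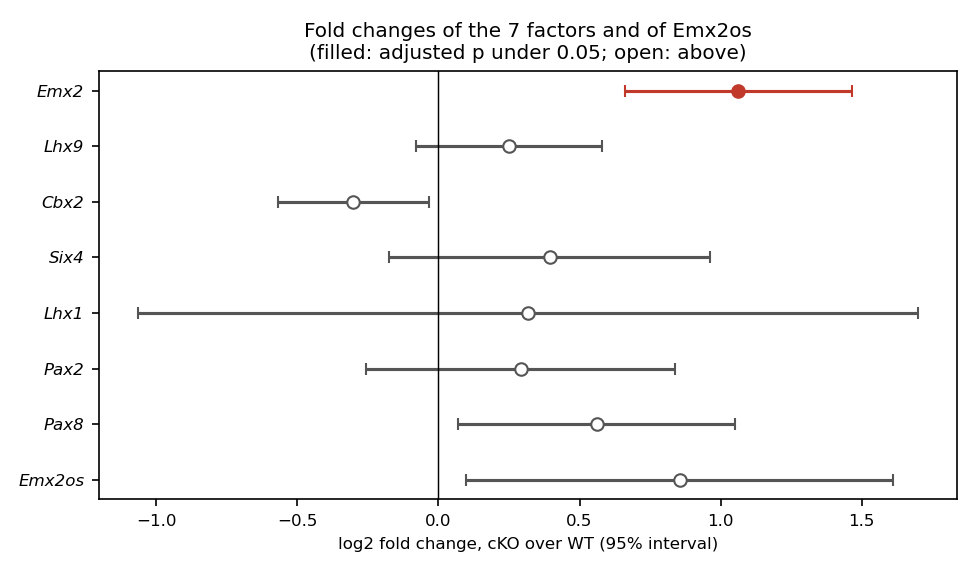
Log2 fold changes of cKO over WT with 95% intervals for the 7 factors and Emx2os, filled where edgeR's adjusted p was under 0.05. Emx2 alone is filled, at 1.06, and the interval of Lhx1, -1.07 to 1.70, is the widest.

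Per length, the 7 genes stood in the same order in both groups: Lhx9, Cbx2, Emx2, Pax8, Pax2, Six4 and Lhx1. The mean FPKM in cKO was 20.5, 13.2, 9.45, 2.16, 1.31, 0.691 and 0.195 in that order, and in WT it was 17.2, 16.2, 4.51, 1.46, 1.06, 0.523 and 0.155. In cKO no neighbours in the order overlapped in their library values. In WT Lhx9 (15.8 to 18.3 FPKM) and Cbx2 (15.6 to 17.4 FPKM) did overlap, and no other neighbours did. Among tested genes, the WT FPKM of Lhx9 and Cbx2 stood at percentiles 78.4 and 76.9, that of Emx2 at 46.0 and that of Lhx1 at 0.903.

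The cKO libraries differed more among themselves than the WT libraries did. The coefficient of variation was larger in cKO for all 7 genes, with a median of 21.0% in cKO and 9.25% in WT. Over all tested genes it was larger in cKO for 64.3%, with medians of 18.3% in cKO and 13.5% in WT. Among cKO libraries, library 1 was highest and library 2 lowest for Emx2, Emx2os, Lhx9, Lhx1 and Pax8, while Cbx2 and Pax2 were highest in library 2. The summed CPM of the Sertoli cell markers was 929, 1133 and 722 in cKO libraries 1, 2 and 3. Its part in these differences between animals was not tested.

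Among other regulators of the bipotential gonad, 17 were tested. By edgeR 3 were higher in cKO testes, 0 lower and 14 not called (with an unadjusted p under 0.05: 6 higher, 1 lower; 5 higher and 1 lower by DESeq2; 2 higher and 1 lower by limma-voom), with a median log2 fold change of 0.06. Gadd45g, which activates the kinase MAP3K4 upstream of Sry, rose to 39.8 ± 5.75 CPM in cKO testes, against 16.6 ± 5.61 CPM in WT testes (log2 fold change 1.27, edgeR adjusted p = 0.00933). The remaining calls were Nr0b1, an orphan nuclear receptor gene, at 30.2 ± 3.39 CPM in cKO testes and 13.5 ± 2.90 CPM in WT testes (1.16, edgeR adjusted p = 0.00592), and the homeobox gene Hoxb9, at 27.9 ± 12.3 CPM in cKO testes and 10.8 ± 2.74 CPM in WT testes (1.36, edgeR adjusted p = 0.0308). Nr0b1 kept its call in all 16 alternative fits. Gadd45g lost it without WT library 1 (adjusted p = 0.0641) and without WT library 3 (0.0598). Hoxb9 lost it in 8 of 16, among them every fit that left out a single library other than cKO library 2, with adjusted p-values of 0.0505 to 0.178.

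Gata4, the most abundant gene of this list, stood at 314 ± 25.0 CPM in cKO testes and 439 ± 25.5 CPM in WT testes, with all cKO libraries below all WT libraries. Its log2 fold change of -0.48 was not called by edgeR (adjusted p = 0.0579) and was called lower by DESeq2 (adjusted p = 0.00246) and limma-voom (adjusted p = 0.0459). Nr5a1 stood at 241 CPM in cKO testes and 233 CPM in WT testes on average (edgeR adjusted p = 0.884). Nr5a1 is a target of LHX9, SIX4 and CBX2 in the early gonad of mice. Its library values, 225 to 257 CPM in cKO and 215 to 251 CPM in WT, overlapped. Osr1, a zinc finger gene of the intermediate mesoderm, had 64.7 ± 22.4 CPM in cKO testes and 32.5 ± 8.56 CPM in WT testes (log2 fold change 0.99, edgeR adjusted p = 0.0691, DESeq2 adjusted p = 0.00397, limma-voom adjusted p = 0.0914).

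Of 17 tested genes among other mesonephros and nephric duct regulators, by edgeR 1 was higher in cKO, 1 lower and 15 not called (with an unadjusted p under 0.05: 4 higher, 2 lower; 2 higher and 1 lower by DESeq2; 1 higher and 1 lower by limma-voom), and the median log2 fold change was -0.18. Wnt11, a ligand made at the tips of the ureteric bud, rose to 33.6 ± 1.89 CPM in cKO testes, against 7.97 ± 0.619 CPM in WT testes (log2 fold change 2.07, SE 0.158, edgeR adjusted p = 7.27e-05). Gdnf, which draws out the ureteric bud and in the testis is a Sertoli cell factor for germ cells, fell to 11.2 ± 2.10 CPM in cKO testes, against 39.2 ± 7.78 CPM in WT testes (-1.81, SE 0.198, edgeR adjusted p = 0.00048). Wnt11 and Gdnf kept their calls in all 16 alternative fits. Foxc1, a forkhead gene of the intermediate mesoderm, was called higher by DESeq2 (adjusted p = 0.00698) and not by edgeR (0.83, adjusted p = 0.0524) or limma-voom (adjusted p = 0.0578). The GDNF receptor genes Ret and Gfra1 stood at -0.42 and 0.66 on the log2 fold change scale (edgeR adjusted p = 0.409 and 0.183). Greb1l, the most abundant of the list, was at 101 CPM in cKO testes and 96.3 CPM in WT testes on average, followed by Gdnf in WT.

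**Figure D4:**
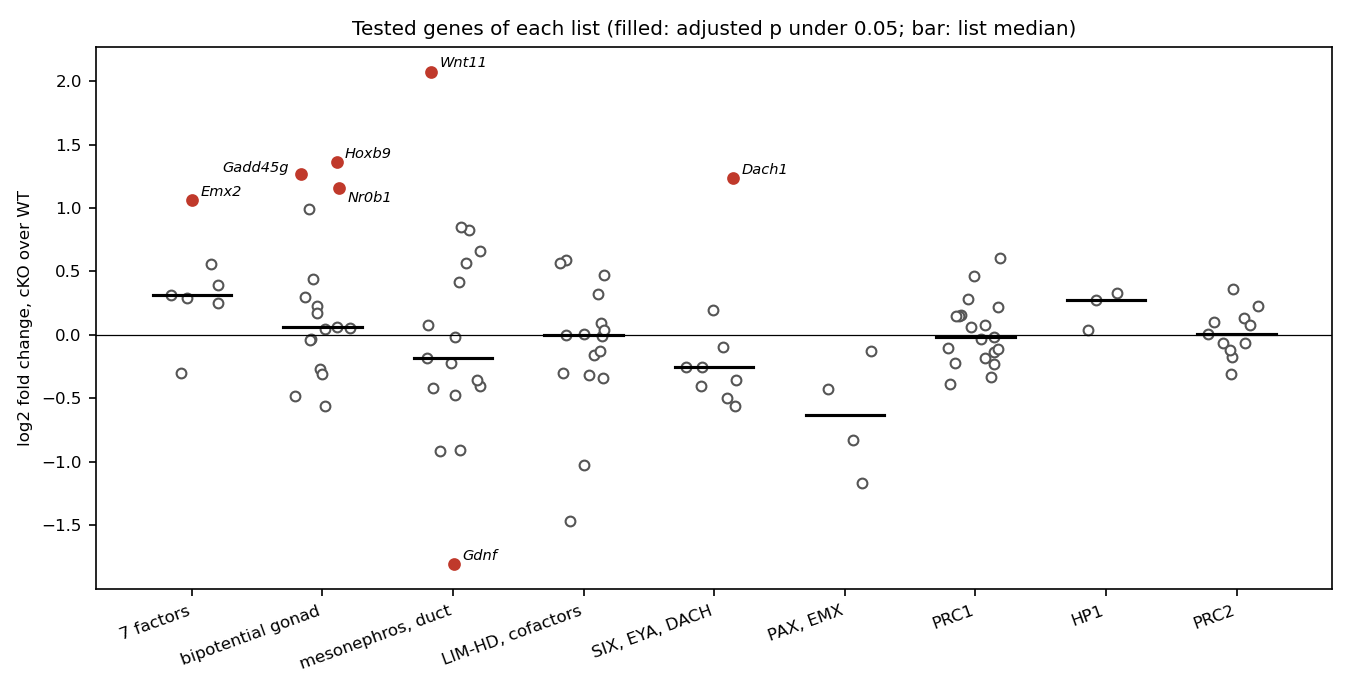
Log2 fold changes of cKO over WT of every tested gene in 9 lists, with filled points for an edgeR adjusted p under 0.05 and a bar at the median of each list. Calls lie at Emx2, in the gonad and mesonephros lists and at Dach1, and the PRC1, HP1 and PRC2 genes hold none.

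The families and partners of the 7 genes held 1 call. Among relatives of Six4 and the Eya and Dach family genes of its network, 9 genes were tested, 1 was higher and 0 were lower by edgeR, DESeq2 and limma-voom (with an unadjusted p under 0.05: 1 higher, 0 lower). It was Dach1, a co-repressor gene of the network, at 19.0 ± 5.49 CPM in cKO testes and 8.07 ± 2.82 CPM in WT testes (log2 fold change 1.24, edgeR adjusted p = 0.0423). That call did not hold in 7 of 16 alternative fits, among them those without cKO library 1, cKO library 3, WT library 1 and WT library 3 (adjusted p = 0.0769 to 0.188). The abundant Six5 and Eya3 stood at 0.19 and -0.09 on the log2 fold change scale and were not called (edgeR adjusted p = 0.49 and 0.759).

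Among 16 tested LIM-homeodomain genes and cofactors, 0 were called by any of edgeR, DESeq2 and limma-voom (with an unadjusted p under 0.05: 1 higher, 1 lower), with a median of 0.00. Ldb1, which encodes the common cofactor of LHX9 and LHX1, was at 212 ± 30.8 CPM in cKO testes and 213 ± 20.1 CPM in WT testes. Rlim, whose ubiquitin ligase product degrades LIM cofactors, was at 158 CPM in cKO testes and 173 CPM in WT testes on average. Of the other PAX and EMX genes with Paxip1, 4 of 9 passed the filter and 0 were called by any of edgeR, DESeq2 and limma-voom (with an unadjusted p under 0.05: 0 higher, 2 lower). Emx1, the paralog of Emx2, was at 0.577 CPM in cKO testes and 0.775 CPM in WT testes on average and was not called (edgeR adjusted p = 0.811).

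Around Cbx2, none of 19 other PRC1 genes was called by edgeR or limma-voom (with an unadjusted p under 0.05: 3 higher, 2 lower, and 1 higher by DESeq2), and the median was -0.02. Cbx6 had 246 ± 3.08 CPM in cKO testes and 178 ± 28.4 CPM in WT testes (log2 fold change 0.47, edgeR adjusted p = 0.0936), and Rybp, a subunit gene of variant PRC1, had 63.0 ± 6.40 CPM in cKO testes and 82.2 ± 4.92 CPM in WT testes (-0.38, edgeR adjusted p = 0.136). None of 11 PRC2 genes was called by any of edgeR, DESeq2 and limma-voom (with an unadjusted p under 0.05: 0 higher, 1 lower), and that 1 gene was Ezh1, a methyltransferase gene of the complex (log2 fold change -0.31, edgeR adjusted p = 0.284). None of the 3 HP1 genes Cbx1, Cbx3 and Cbx5 was called by any of edgeR, DESeq2 and limma-voom, and 0 were at an unadjusted p under 0.05.

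Markers of tissues in which these genes are known from the embryo were read beside them. The duct and rete epithelium list summed to 138 to 164 CPM in cKO and 148 to 157 CPM in WT libraries. None of its 15 tested genes was called by edgeR or limma-voom (with an unadjusted p under 0.05: 2 higher, 1 lower, and 1 higher by DESeq2). Its defining members Cdh16 and Wnt9b ran from 0.199 to 3.49 and from 0 to 1.19 CPM in cKO and from 0.0598 to 2.12 and from 0 to 0.239 CPM in WT. The coelomic surface epithelium list summed to 147 to 175 CPM in cKO and 131 to 144 CPM in WT libraries. The gap between the groups was small, from 143.5 CPM in WT library 2 to 147.1 CPM in cKO library 2. None of its 7 tested genes was called by edgeR or limma-voom (with an unadjusted p under 0.05: 1 higher, 0 lower, and 1 higher by DESeq2). That 1 gene was Krt19, a keratin gene that is also on the duct list, at 22.4 ± 5.45 CPM in cKO testes and 12.7 ± 2.47 CPM in WT testes (edgeR adjusted p = 0.08).

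Of 6 Müllerian duct markers, Wnt4, a signalling ligand gene, rose in cKO (1.71, edgeR adjusted p = 0.00015). The list summed to 674 to 781 CPM in cKO and 401 to 548 CPM in WT libraries, nearly all from Wnt5a, Wnt4 and Amhr2. These averaged 382, 238 and 104 CPM in cKO testes and 307, 72.8 and 78.8 CPM in WT testes. Lhx1 and Pax2, also on the list, averaged 0.802 and 7.12 CPM in cKO testes and 0.638 and 5.81 CPM in WT testes. Wnt7a, which marks the Müllerian duct epithelium, was at 0.115 to 1.26 CPM in cKO and 0.598 to 1.37 CPM in WT. Among 7 tested kidney nephron markers, 1 rose and 1 fell. Podxl, a sialomucin gene of podocytes and also of endothelium, rose to 219 ± 21.4 CPM in cKO testes, against 97.8 ± 12.1 CPM in WT testes, and Cited1, a transcription cofactor gene of nephron progenitors, fell to 7.65 ± 1.66 CPM in cKO testes, against 40.7 ± 4.90 CPM in WT testes. The podocyte gene Nphs1 had means under 2 CPM in both groups. For the fetal adrenal cortex, 0 of 4 tested markers were called by any of edgeR, DESeq2 and limma-voom, and 0 were at an unadjusted p under 0.05.

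Interstitial progenitor markers summed to 3527 to 3865 CPM in cKO and 2193 to 3072 CPM in WT libraries. Fetal Leydig cell markers summed to 5005 to 6844 CPM in cKO and 3794 to 4497 CPM in WT libraries, with 0 of 6 called by edgeR (4 higher at an unadjusted p under 0.05, 2 higher by DESeq2 and 1 by limma-voom). Of germ cell markers, 0 of 6 tested were called by any of edgeR, DESeq2 and limma-voom (1 lower at an unadjusted p under 0.05). Endothelial, peritubular myoid and erythroid markers held 1 higher call each by edgeR, namely Kdr, Des and Hba-a1. Over the 16 alternative fits Kdr lost its call in 3, Des in 6 and Hba-a1 in 5. For each gene these included the fits without WT library 1 and without WT library 3. The part of these shifts in cell type markers in the Emx2 difference was not tested.

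**Figure D5:**
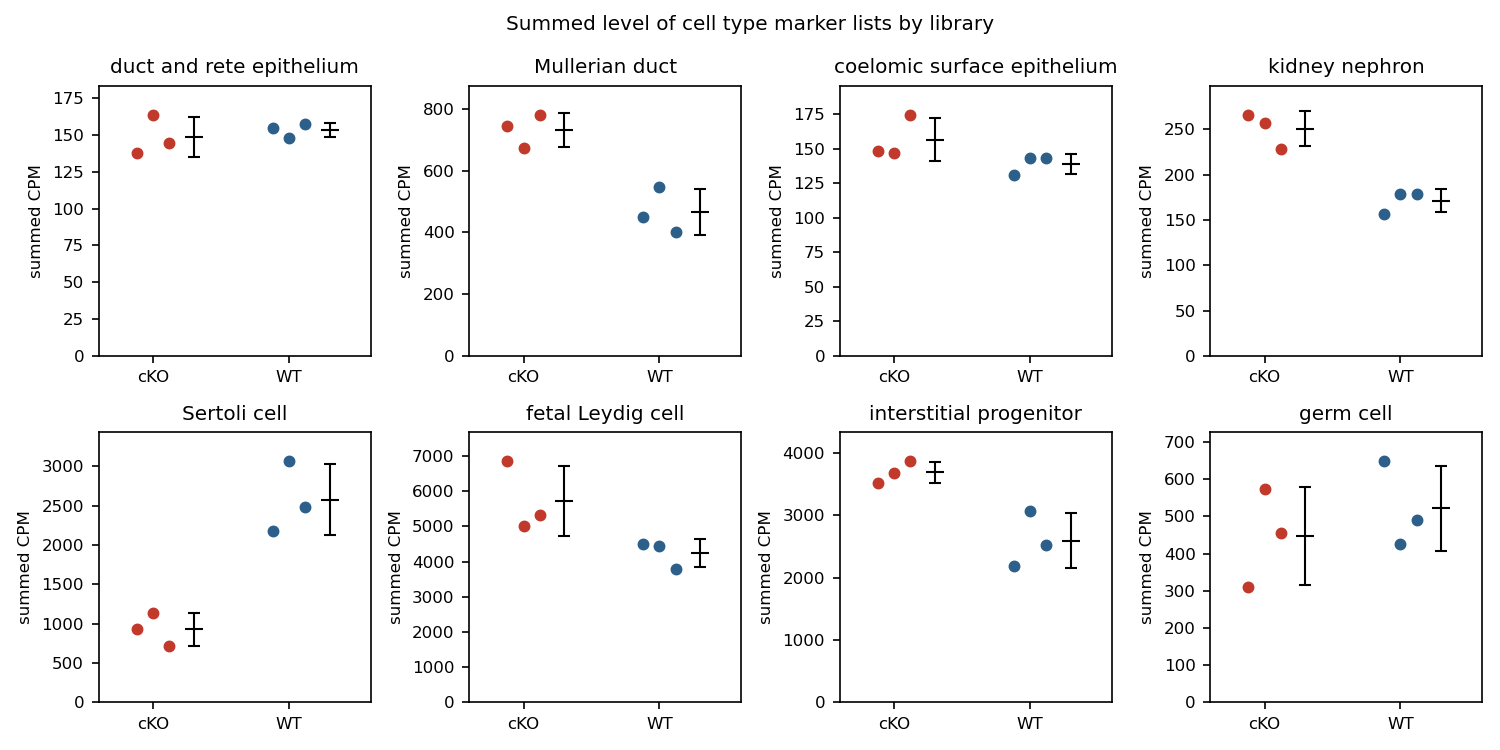
Summed CPM of 8 cell type marker lists in each library (points), with the mean ± SD of 3 libraries per group. Sertoli sums are lower in all cKO libraries (722 to 1133 CPM, against 2175 to 3063 CPM in WT), while the duct and rete epithelium sums overlap (138 to 164 CPM in cKO and 148 to 157 CPM in WT).

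Genes whose profile over the 6 libraries lay nearest to each factor were found by the root mean square difference of centred log2 CPM among 12094 other protein-coding genes. Nearest to Emx2 were Ptprj (0.0698, log2 fold change 1.06, edgeR adjusted p = 0.00732) and Tspan12 (0.086, 1.04, edgeR adjusted p = 0.00762), where Emx2 itself had an SD of 0.605 over the 6 libraries. Nearest to Lhx9 were Sepn1 (0.0211) and Ednra (0.0363), and nearest to Cbx2 were Hmgxb4 (0.0259) and Cfap97 (0.0385). Pax8 lay nearest to Adrbk2 (0.0748) and Chst11 (0.0863), and Pax2 to 1600002H07Rik (0.0363) and Yars2 (0.0466). Six4 lay nearest to Sdpr (0.09) and Nmrk1 (0.098), and Lhx1, at its few counts, to Pcdhb18 (0.181) and Fmo2 (0.185). The match includes the difference between groups, so a neighbour has a fold change like that of its factor by selection. That the neighbours of Emx2 alone were called is therefore no separate result. These matches over 6 libraries are a description.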

How the data were processed

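Polyadenylated RNA of 3 cKO and 3 WT testes was measured. Per the submitters' processing notes the tool HISAT2 2.0.5 and the build GRCm38 belong to the processing, while the deposited tables carry C57BL/6NJ gene identifiers and coordinates, which were kept as given. The sources used here do not give the counting tool, its strand setting or the annotation release. The count table deposited by the authors holds whole counts per gene, not normalised. The FPKM tables deposited by the authors hold values per gene length and library, per the file headers. The tables held 0 rows on chromosome Y, and loci without a gene name took 0.713% to 0.961% of counts.

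Counts were fitted in R 4.3.3 with edgeR 4.0.16 (filterByExpr with its minimum count of 10, TMM, glmQLFit, glmQLFTest, no covariate). P-values were adjusted by Benjamini-Hochberg. The biological coefficient of variation was 19.7%. Intervals are 95%, SE is the absolute log2 fold change over the square root of F, and errors cover the spread between these 3 animals a group. Alternatives were DESeq2 1.42.0, limma 3.58.1 (voom, and trend on log2 FPKM with pseudocounts of 0.1 and 1), other scaling factors, other low-count filters, a replicate block and leaving out each library. No libraries of a group were duplicates (chi-square of 13.6 to 40.9 for each degree of freedom). The code was checked on simulated counts, where 18 of 153 calls were false. There 55.2% of genes with an absolute log2 fold change of 1 were called, and 82.8% of those with 2. The 7 genes and all lists (195 symbols, 190 matched) were chosen with earlier results of these data known. Named are the 7 genes, called list members, from each list up to 4 genes of lowest p and the 2 most abundant, and the 2 nearest profiles per gene (mean of at least 5 CPM, prior count 2). Partners, chromosome neighbours and defining markers outside that rule (Cbx8, Ret, Cdh16, Wnt9b, Wnt7a and Nphs1) were named after their values were seen. The same holds for Osr1, which was not called by edgeR and is outside the rule in its list. Some list members are not reported here.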

Additional observations from a re-analysis of the deposited data

How the results depend on the processing

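Across 16 alternatives the log2 fold change of Emx2 ran from 0.91 to 1.20 and kept its call except without WT library 3 (1.04). With 1 library left out it ran from 0.91 to 1.20, and the number of the 7 genes called higher from 0 to 1. Lhx9, Six4, Pax2, Pax8 and Cbx2 kept their directions and stayed uncalled in all 16. With 1 library left out, Lhx1 ran from -0.22 (without cKO library 1) to 0.64. The cause of that reversal was not tested. DESeq2 gave Lhx1 no adjusted p, and a minimum mean of 1 CPM removed it, since its mean is below that in both groups. The count of called genes was 615 (276 higher, 339 lower), 1101 (527 and 574) by DESeq2 and 1264 (613 and 651) without a low-count filter, which tested 31962 genes. It was 372 (149 and 223) on log2(FPKM + 0.1) and 397 (156 higher) on log2(FPKM + 1). With 1 library left out it ran from 272 to 723, with 105 to 342 higher and 167 to 399 lower (304 without cKO library 3, and 323, 370 and 272 without WT libraries 1, 2 and 3). With the replicate block, 696 genes were called, Emx2 was at 1.05 and Dach1 was not called. Same-numbered libraries correlated at 0.0172, 0.184 and 0.0325 in their deviations. For cKO libraries 2 and 3 the same-numbered WT library was the best match, while cKO library 1 correlated best with WT library 3 (0.157). With 3 libraries a group these values cannot decide whether the numbers are pairs. The labels state no pairing, so none was used in the main fit. Among the 7, depth limits Lhx1 most.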

Other observations

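Within 100 kb of the 7 genes in the files' coordinates, called genes other than Emx2 itself were rare, and those named here were chosen after their values were seen. Il1rn, which encodes an antagonist of the interleukin-1 receptor and lies on chromosome 2 at 76004 bases from Pax8, averaged 1.64 CPM in cKO testes and 0.289 CPM in WT testes (log2 fold change 2.46, edgeR adjusted p = 0.0491). A predicted locus without a gene name, 56284 bases from Cbx2 on chromosome 11, averaged 0.228 CPM in cKO testes and 2.84 CPM in WT testes (-3.58, edgeR adjusted p = 0.00277). Psd4, which lies between Il1rn and Pax8, stood at 0.15 (edgeR adjusted p = 0.864). Pax8 shares 41226 bases with Gm13415 on the other strand, which averaged 0.371 CPM in cKO testes and 0.642 CPM in WT testes. Lhx1os, which starts 125 bases from Lhx1 on the other strand, had 2, 4 and 2 counts in cKO libraries and 8, 1 and 2 counts in WT libraries.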
